A study of Mus musculus with 8 samples.

Results

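Hyaluronan is a large unbranched sugar chain of the pericellular matrix and of the fluid spaces between tendon fascicles. Synthases in the plasma membrane spin it from UDP-glucuronic acid and UDP-N-acetylglucosamine, hyaluronidases cut it outside the cell and in lysosomes, and binding proteins anchor the chain to the cell surface or cross-link it in the matrix. The mRNA of 10 genes of this system was followed here: the synthases Has1, Has2 and Has3, the breakdown genes Hyal1, Hyal2 and Cemip, the receptors Cd44 and Lyve1, and the matrix partners Tnfaip6 and Vcan. They were chosen by gene symbol from the 19301 genes of the deposited expression table, and all 10 symbols were found.

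The cells were primary tendon stem cells (TSCs) from the patellar tendon of C57BL/6J mice, cultured for 4 days before RNA extraction. The HFHG group (high fat, high glucose, n = 4) received medium with raised glucose and palmitic acid, a saturated fatty acid, and the LG group (low glucose, n = 4) received medium with 5.5 mM glucose and DMSO. The paper calls the samples biological replicates and the labels give no animal for each, so the p-values measure the spread between these cultures. The question was how the hyaluronan genes of TSCs differ between a medium that imitates the glucose and lipid load of diabetes and a normal medium.

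Expression is given in FPKM, the fragments of a gene scaled by its length and by the depth of sequencing, so that genes and libraries can be set side by side. The whole reads behind each value were recovered and totalled 34308108 to 37362725 per library, so that 3 reads of Has2 are worth 0.0189 to 0.0206 FPKM. The 1st principal component held 81.0% of the variance and separated the media, whereas the 2nd (4.18%) set LG replicate 4 (13.8) apart from the other 7 libraries (-7.93 to 2.49). Tendon and fibroblast markers were detected in all libraries: 15 of 15 passed the filter on low values, and their summed level was 3415 to 3452 FPKM in HFHG and 2211 to 2226 FPKM in LG. The tendon markers Scx (2.27 FPKM in HFHG, 1.45 in LG) and Tnmd (1.10 and 0.614) were low. Thbs4 was abundant (370 and 168), and Mkx (6.73 and 8.62) went the other way. Of the 15 markers, 13 were called higher in HFHG, 1 (Mkx) lower and 1 not called. By qPCR, at a culture time not stated for it, the paper reported Scx and Tnmd as decreased in HFHG medium and Mkx as not significantly changed. It reported a decrease of TNMD protein in that medium too. In the libraries, the Scx groups overlapped (1.53 to 2.88 FPKM in HFHG, 0.983 to 1.76 FPKM in LG). Macrophage markers were present too, with 10 of 12 above the filter and none at 0, and their sum was 1740 to 1787 FPKM in HFHG and 1916 to 2001 FPKM in LG. Most of that sum was Lyz2, a lysozyme gene, and the other 11 markers summed to 121 to 125 FPKM in HFHG and 180 to 190 FPKM in LG. In such bulk samples, fewer cells of a type and less RNA per cell cannot be told apart.

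Cemip, whose product binds hyaluronan and takes part in its breakdown, was higher in HFHG than in LG by 1.94-fold, and was the most abundant of the 10 mRNAs. Vcan, which codes for the large hyaluronan-binding proteoglycan versican, and Cd44, the main hyaluronan receptor, were lower in HFHG by smaller amounts. Has2 (1.43-fold) and Hyal2 (1.11-fold) were higher, with groups that overlapped, and both calls were lost when certain single libraries were left out. Hyal1 and Tnfaip6 did not pass the test, and Has1, Has3 and Lyve1 were too low to enter it.

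The reference promoters of the 3 genes whose libraries did not overlap between the media are shown first, since these genes carry the comparison. They are the RefSeq sequences of the GRCm38.p6 build from 250 bases before to 50 bases after the start site, all on the minus strand and written 5′ to 3′, at chr7:84086456-84086755 (Cemip), chr13:89742463-89742762 (Vcan) and chr2:102901616-102901915 (Cd44). Capitals mark the matches, on either strand, to the motifs searched.
Cemip: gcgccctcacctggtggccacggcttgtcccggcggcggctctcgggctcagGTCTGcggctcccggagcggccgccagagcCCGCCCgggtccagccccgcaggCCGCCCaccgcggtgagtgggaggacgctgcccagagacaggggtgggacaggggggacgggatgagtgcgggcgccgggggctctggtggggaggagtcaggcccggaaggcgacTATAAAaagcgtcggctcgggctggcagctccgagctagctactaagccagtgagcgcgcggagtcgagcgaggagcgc
Vcan: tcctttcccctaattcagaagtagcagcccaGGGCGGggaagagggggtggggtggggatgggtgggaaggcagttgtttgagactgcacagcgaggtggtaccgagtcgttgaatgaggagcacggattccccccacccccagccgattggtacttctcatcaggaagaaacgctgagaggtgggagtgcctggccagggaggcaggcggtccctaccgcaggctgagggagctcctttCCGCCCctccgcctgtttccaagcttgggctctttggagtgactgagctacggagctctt
Cd44: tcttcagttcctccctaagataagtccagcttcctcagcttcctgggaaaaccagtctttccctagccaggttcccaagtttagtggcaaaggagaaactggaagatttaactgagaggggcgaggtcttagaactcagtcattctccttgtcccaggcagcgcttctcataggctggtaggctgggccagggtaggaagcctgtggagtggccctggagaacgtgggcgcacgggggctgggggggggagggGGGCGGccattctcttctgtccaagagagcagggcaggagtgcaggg

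The motifs searched were an E-box, spelled CACGTG, and the AP-1 site, which reads TGANTCA. A GC box of the factor Sp1 was searched as GGGCGG, and a TATA box by the letters TATAAA. For STAT factors the spaced palindrome TTCNNNGAA served, for SMAD factors the short box CAGAC, and for PPAR the direct repeat known as DR1. No match shared bases with a match to another motif in the windows shown. Cemip held the GC box at -168 and -145 from the start site, the TATA box at -29 and the SMAD box at -198. Of all 32851 promoters of the same length of 300 bases, 35.7% held the GC box, 13.6% the TATA box and 49.6% the SMAD box. Vcan held the GC box at -219 and -10, and Cd44 at position 3 after the start. No match to the E-box (7.15% of all promoters), AP-1 (7.81%), STAT (8.30%) or DR1 (0.0396%) motif was present in these 3 windows. The GC content was 73.7% in the Cemip window, 61% in Vcan and 58% in Cd44, and the median over all promoters was 52.7%. These matches describe the letters of the window only. A sequence was matched for 7 of the 10 genes, with none for Has2, Has3 and Lyve1.

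**Figure D1:**
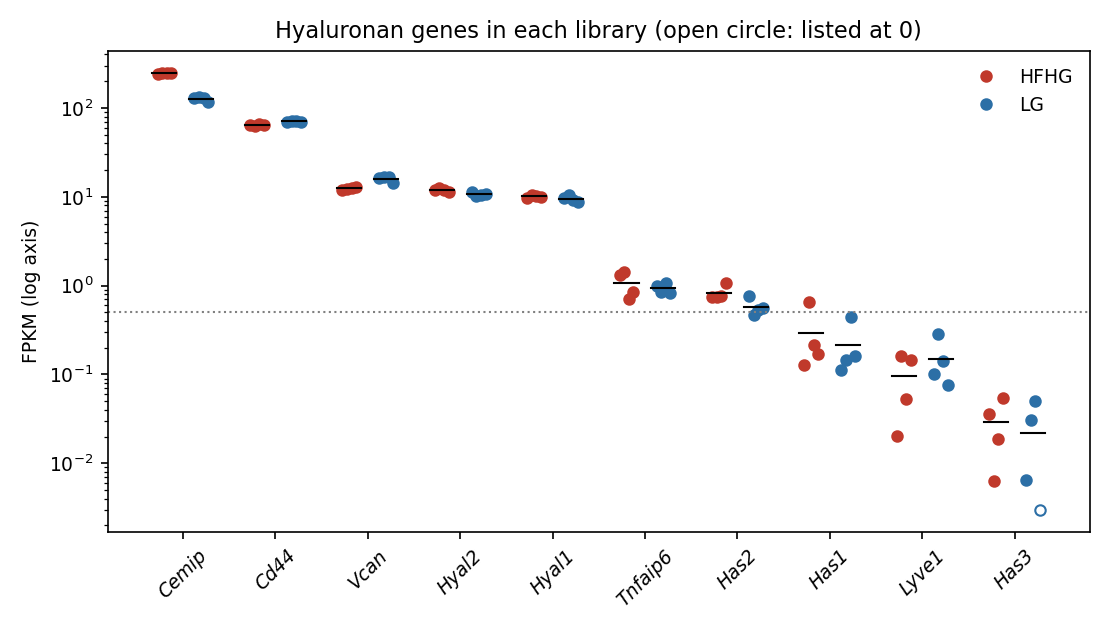
Level of the 10 hyaluronan genes in each library, in FPKM on a log axis, ordered by mean. Points are libraries (red HFHG, blue LG, n = 4 each), black lines are group means, the open circle at the bottom is Has3 in LG replicate 4, listed at 0, and the dotted line is the filter of 0.5 FPKM. Cemip is the highest at 116 to 250 FPKM, and the synthases Has1 and Has3 lie mostly below the filter.

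The plot of levels by library shows the order of the 10 genes, which spanned from Cemip, rank 231 of all genes in HFHG and 518 in LG, to Has3 with 19 reads in HFHG and 14 in LG. Cemip lay above Cd44 in 8 of 8 libraries, and Cd44 above Vcan in 8 of 8. Vcan was above Hyal2 in 7 of 8 libraries, but their ranges overlapped in HFHG, where the mean of Vcan was 1.05 times that of Hyal2. Hyal2 was above Hyal1 in 7 of 8 libraries and their ranges overlapped in LG. Tnfaip6 and Has2 overlapped in HFHG, Has1 and Lyve1 overlapped in both groups, and Lyve1 and Has3 overlapped in HFHG, so the order of these neighbours is not fixed by their values.

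For the comparison of media, limma was run on log2(FPKM + 0.1) over the 11710 genes with at least 0.5 FPKM in at least 4 of 8 libraries, and a gene was called at a Benjamini-Hochberg adjusted p under 0.05. Of these 11710 genes, 64.8% were called, 34% higher and 30.8% lower in HFHG. Of the 7 hyaluronan genes tested, 5 were called: Cemip, Has2 and Hyal2 higher, Vcan and Cd44 lower. Such a count of calls is close to the background, and it sets these genes apart in no way. The median log2 fold change was 0.14 over the 7 genes and 0.02 over all genes tested. By the threshold the study used, a fold change over 2 with an unadjusted p under 0.05, 5.33% of all genes tested passed (3.68% higher in HFHG) and 0 of the 7 did in limma on FPKM or in voom on the recovered reads, while 5 had an unadjusted p under 0.05. The libraries of the groups did not overlap for 3 of the 7 genes (Cemip, Vcan and Cd44), and for 59.2% of all genes tested.

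**Figure D2:**
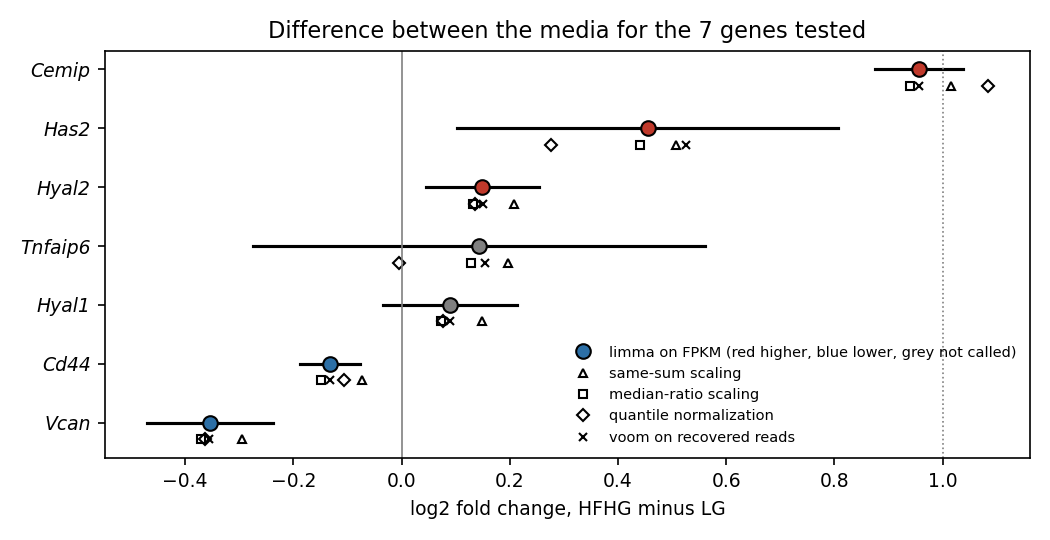
Log2 fold change of HFHG minus LG for the 7 hyaluronan genes tested. Large points are the limma estimates on log2(FPKM + 0.1) (red called higher, blue called lower, grey not called; n = 4 against 4) with 95% intervals, and small symbols are the estimates under 4 other scalings or tools. Cemip lies near the dotted line of a fold change of 2 (0.94 to 1.08), and Tnfaip6 crosses 0.

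The synthases came first in the pathway and were the least abundant group. Has2 (chr15:56665627-56694539, minus strand; this and the other gene positions are those of GENCODE M21 on GRCm38), the main hyaluronan synthase of many mesenchymal cells, measured 0.750, 0.739, 0.766 and 1.07 FPKM in HFHG replicates 1 to 4 and 0.762, 0.467, 0.539 and 0.556 FPKM in LG replicates 1 to 4. HFHG replicate 4 was the highest library and LG replicate 2 the lowest, while LG replicate 1 lay among the HFHG libraries, so the groups overlapped. HFHG averaged 0.831 ± 0.160 FPKM (SD, n = 4) from 513 reads, and LG averaged 0.581 ± 0.127 FPKM (SD, n = 4) from 348 reads. The log2 fold change was 0.45 ± 0.16 (SE; 95% interval 0.10 to 0.81), with a limma adjusted p of 0.0260. An exact permutation test, two-sided over the 70 ways to arrange the libraries, gave p = 0.0857. The call was lost without HFHG replicate 4 (log2 fold change 0.34, limma adjusted p = 0.0851), without LG replicate 2 (0.37, 0.0736), LG replicate 3 (0.43, 0.0570) or LG replicate 4 (0.44, 0.0509), and with no filter or quantile normalization. A pseudocount of 1 kept the call at a log2 fold change of 0.21. An antisense gene, Has2os, shares 182 exon bases with Has2 on the other strand, and whether the counting used strand is not given in the sources used here.

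Has1 (chr17:17843323-17855205, minus strand), another membrane synthase, had 10, 48, 16 and 13 reads in HFHG and 8, 11, 33 and 12 reads in LG. These correspond to 0.128, 0.648, 0.212 and 0.170 FPKM in HFHG and 0.111, 0.145, 0.445 and 0.161 FPKM in LG. A single library stood out in each group, HFHG replicate 2 and LG replicate 3, and the other 6 libraries overlapped. The variance between libraries was 15.3 times that of counting alone in HFHG and 8.16 times in LG. The means of 0.290 ± 0.242 FPKM (SD, n = 4) and 0.216 ± 0.154 FPKM (SD, n = 4) gave p = 0.543 in the exact two-sided permutation test. The difference turned to -0.045 FPKM without HFHG replicate 2. The share of reads in HFHG over that in LG was 1.33 (exact 95% binomial interval 0.949 to 1.86, which covers counting error only).

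Has3 (chr8:106870242-106884566, plus strand), the synthase known for shorter chains, was close to absent from the libraries. It had 6, 1, 3 and 9 reads in HFHG and 1, 5, 8 and 0 reads in LG, and its highest level was 0.0549 FPKM, in HFHG replicate 4. The 0 in LG replicate 4 allows up to 0.0188 FPKM, the worth of 3 reads of Has3 in that library. The permutation test gave an exact two-sided p of 0.657. The sign of the difference turned without HFHG replicate 4 and without LG replicate 4. The ratio of read shares was 1.32 with a counting interval of 0.629 to 2.85, which covers counting error only. The variance between libraries was 2.48 times that of counting alone in HFHG and 3.84 times in LG. This interval is thus not a limit of detection.

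**Figure D3:**
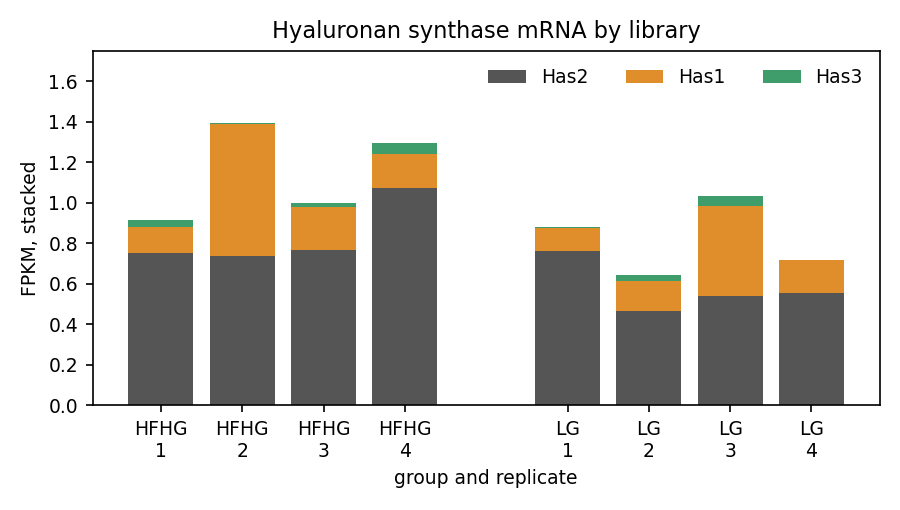
Summed level of the 3 hyaluronan synthases in each library, in FPKM, stacked by gene. Bars are libraries (4 HFHG, 4 LG); Has2 forms 52.1% to 86.6% of the sum, and the bars of HFHG replicate 2 and LG replicate 3 carry the large Has1 segments.

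The stacked plot of synthase mRNA shows that Has2 made up the larger part of the synthase sum in all 8 libraries. Its share was 82.1%, 53.0%, 76.8% and 82.6% in HFHG and 86.6%, 72.7%, 52.1% and 77.5% in LG, with the lowest share in each group in the library of high Has1. The summed level was 0.914, 1.39, 0.997 and 1.30 FPKM in HFHG and 0.880, 0.643, 1.03 and 0.717 FPKM in LG, and the groups overlapped. Synthase mRNA was thus sparse beside that of the breakdown genes, which summed to 260 to 271 FPKM in HFHG and 136 to 152 FPKM in LG.

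Among the breakdown genes, Cemip (chr7:83932857-84086502, minus strand) differed most. It measured 238, 247, 249 and 250 FPKM in HFHG replicates 1 to 4 and 130, 132, 129 and 116 FPKM in LG replicates 1 to 4. Each HFHG library lay above each LG library, and LG replicate 4 was the lowest, 11% below the mean of the other LG libraries. The means were 246 ± 5.38 FPKM (SD, n = 4) and 127 ± 7.27 FPKM (SD, n = 4), from 305448 and 153575 reads, a ratio of 1.94. The log2 fold change was 0.96 ± 0.037 (SE; 95% interval 0.88 to 1.04), with a limma adjusted p of 2.44e-10. The exact permutation p was 0.0286, the smallest that 4 against 4 libraries can give. Without LG replicate 4, the log2 fold change was 0.91 and the limma adjusted p 3.68e-11. Cemip was called higher in all 17 alternatives run (log2 fold change 0.91 to 1.08), and passed a fold change of 2 only when FPKM were rescaled to the same sum (1.02) or quantile normalized (1.08). A larger change in either direction was measured for 5.87% of all genes tested. Of the tendon and fibroblast markers, 13 of 15 were also called higher in HFHG, against 34% of all genes tested (median 0.61 on the log2 scale) and their part in the Cemip result was not tested.

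Hyal2 (chr9:107567945-107572779, plus strand), a hyaluronidase tethered to the cell surface that cuts long chains, measured 11.9, 12.7, 11.9 and 11.2 FPKM in HFHG and 11.3, 10.3, 10.6 and 10.8 FPKM in LG. LG replicate 1 lay above HFHG replicate 4, the only overlap between the groups. The means were 11.9 ± 0.604 and 10.7 ± 0.414 FPKM (SD, n = 4 each). The log2 fold change was 0.15 ± 0.048 (SE), with a limma adjusted p of 0.0156 and an exact permutation p of 0.0571. The call was lost without HFHG replicate 2 (0.12, limma adjusted p = 0.0534).

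Hyal1 (chr9:107576927-107581710, plus strand), the lysosomal hyaluronidase that takes over the fragments, measured 9.75, 10.5, 10.3 and 9.92 FPKM in HFHG and 9.59, 10.5, 9.25 and 8.73 FPKM in LG. LG replicate 2 was above all HFHG libraries, and LG replicate 4 was the lowest. The log2 fold change of 0.09 (95% interval -0.03 to 0.21) had a limma adjusted p of 0.183, and without LG replicate 2 it was 0.14 with an adjusted p of 0.0344. Hyal1 lies beside Hyal2 on chromosome 9, and 50.8% of its exon bases (1920 bases) are shared with Naa80 on the same strand, so that its reads are uncertain between these genes. Naa80, an acetyltransferase of actin, measured 15.4 FPKM in HFHG and 16.5 FPKM in LG, with a limma adjusted p of 0.0772. Of the summed FPKM of the 3 breakdown genes, Cemip made up 91.4% to 92.2% in HFHG and 85.6% to 86.7% in LG.

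**Figure D4:**
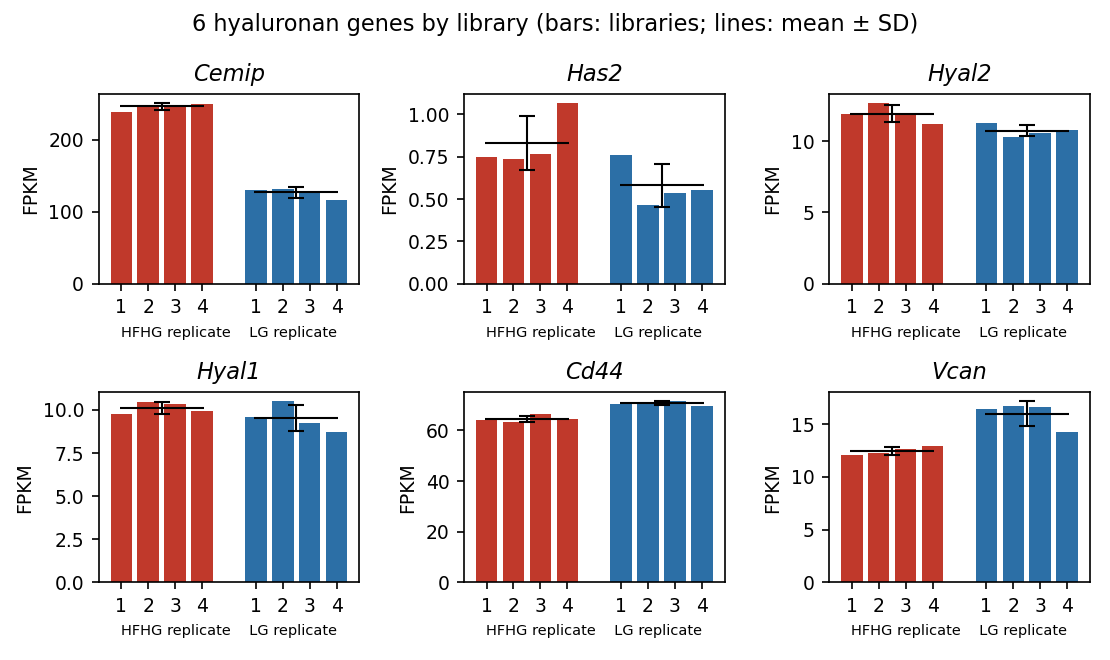
FPKM of Cemip, Has2, Hyal2, Hyal1, Cd44 and Vcan in each library, on axes that start at 0. Bars are libraries (red HFHG replicates 1 to 4, blue LG replicates 1 to 4), and black lines with whiskers are the mean ± SD (n = 4). The groups are separate for Cemip, Cd44 and Vcan and overlap for Has2, Hyal2 and Hyal1, and LG replicate 4 is the lowest LG bar for Cemip (116 FPKM) and Vcan (14.2 FPKM).

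The bars by library show the same separation for the binding genes, in the other direction. Vcan (chr13:89655312-89742509, minus strand) measured 12.0, 12.3, 12.6 and 12.9 FPKM in HFHG and 16.4, 16.7, 16.6 and 14.2 FPKM in LG. Each LG library lay above each HFHG library, and LG replicate 4, 14.2% below the mean of the other LG libraries, came nearest to HFHG. The means were 12.5 ± 0.396 and 15.99 ± 1.18 FPKM (SD, n = 4 each), from 26670 and 33346 reads. Vcan fell by 0.35 ± 0.053 (SE) on the log2 scale (95% interval -0.47 to -0.24), with a limma adjusted p of 7.99e-05. Without LG replicate 4 the log2 fold change was -0.41, and over all 17 alternatives it ranged from -0.41 to -0.29 and stayed called lower.

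Cd44 (chr2:102811141-102901665, minus strand) measured 64.1, 63.3, 66.4 and 64.5 FPKM in HFHG and 70.4, 71.4, 71.5 and 69.8 FPKM in LG. The groups were separate, with a narrow gap between HFHG replicate 3 and LG replicate 4. The means of 64.6 ± 1.30 and 70.8 ± 0.832 FPKM (SD, n = 4 each) differed by a log2 fold change of -0.13 ± 0.025 (SE), with a limma adjusted p of 0.000543. The call held in all 17 alternatives (-0.15 to -0.07). A larger change was measured for 70.3% of all genes tested. Cd44 is expressed by macrophages as well as by mesenchymal cells, and 9 of the 10 macrophage markers tested were called lower in HFHG, against 30.8% of all genes tested (median -0.60 on the log2 scale). The call of Csf1r, a macrophage growth factor receptor, was lost in 7 of 17 alternatives. For Lyz2 the direction was the opposite with quantile normalization (log2 fold change 0.0062). Their part in the Cd44 result was not tested.

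Tnfaip6 (chr2:52038009-52056686, plus strand), which codes for TSG-6, an inflammation-induced protein that couples heavy chains to hyaluronan, measured 1.32, 1.43, 0.711 and 0.837 FPKM in HFHG and 1.001, 0.843, 1.06 and 0.825 FPKM in LG. HFHG replicates 1 and 2 lay above all LG libraries, replicate 3 below them and replicate 4 among them, so the groups overlapped. The means were 1.07 ± 0.353 and 0.932 ± 0.115 FPKM (SD, n = 4 each), from 250 and 211 reads. The log2 fold change of 0.14 had a 95% interval of -0.27 to 0.56 and a limma adjusted p of 0.530, and it changed sign without HFHG replicate 2 and with quantile normalization.

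Lyve1 (chr7:110850607-110863239, minus strand), the hyaluronan receptor of lymphatic endothelium and of some tissue macrophages, had 2, 15, 5 and 14 reads in HFHG and 9, 27, 13 and 7 reads in LG. Its highest level was 0.285 FPKM, in LG replicate 2, and the groups overlapped. The mean difference was -0.055 FPKM and the exact permutation p 0.429. Without LG replicate 2, the difference was -0.0098 FPKM. The ratio of read shares was 0.627 with a counting interval of 0.400 to 0.970, but the variance between libraries was 4.85 times that of counting alone in HFHG and 5.43 times in LG. The endothelial and lymphatic markers summed to 3.89 to 4.37 FPKM in HFHG and 4.76 to 5.09 FPKM in LG over 8 genes, 3 of which passed the filter.

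The other genes of the pathway were grouped by role. For the supply of UDP-sugars, 10 of 10 genes were tested and all were called, 4 higher and 6 lower in HFHG, where 34% of all genes tested were called higher and 30.8% lower (median change -0.16 on the log2 scale). The 4 higher genes lie on the hexosamine route to UDP-N-acetylglucosamine: Gfpt1 (0.22) and Gfpt2 (0.23), its entry enzymes, Pgm3 (0.35) and Uap1 (0.42), its last enzyme. On the same route, Gnpnat1 (-0.47) and the salvage kinase Nagk (-0.58) were lower. Uap1l1, a relative of Uap1, had the largest change of the list, 45.1 ± 1.23 FPKM in HFHG and 113 ± 8.24 FPKM in LG (log2 fold change -1.32, limma adjusted p = 6.96e-11). On the branch to UDP-glucuronic acid, Ugp2, which makes UDP-glucose, measured 58.4 ± 0.599 FPKM in HFHG and 92.7 ± 1.83 FPKM in LG (-0.67, limma adjusted p = 1.54e-10). Ugdh, which oxidises UDP-glucose to UDP-glucuronic acid, was lower by a small amount (-0.13, 116 against 126 FPKM), a call lost with quantile normalization (limma adjusted p = 0.0562), and Uxs1, which uses UDP-glucuronic acid for UDP-xylose, had -0.19.

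**Figure D5:**
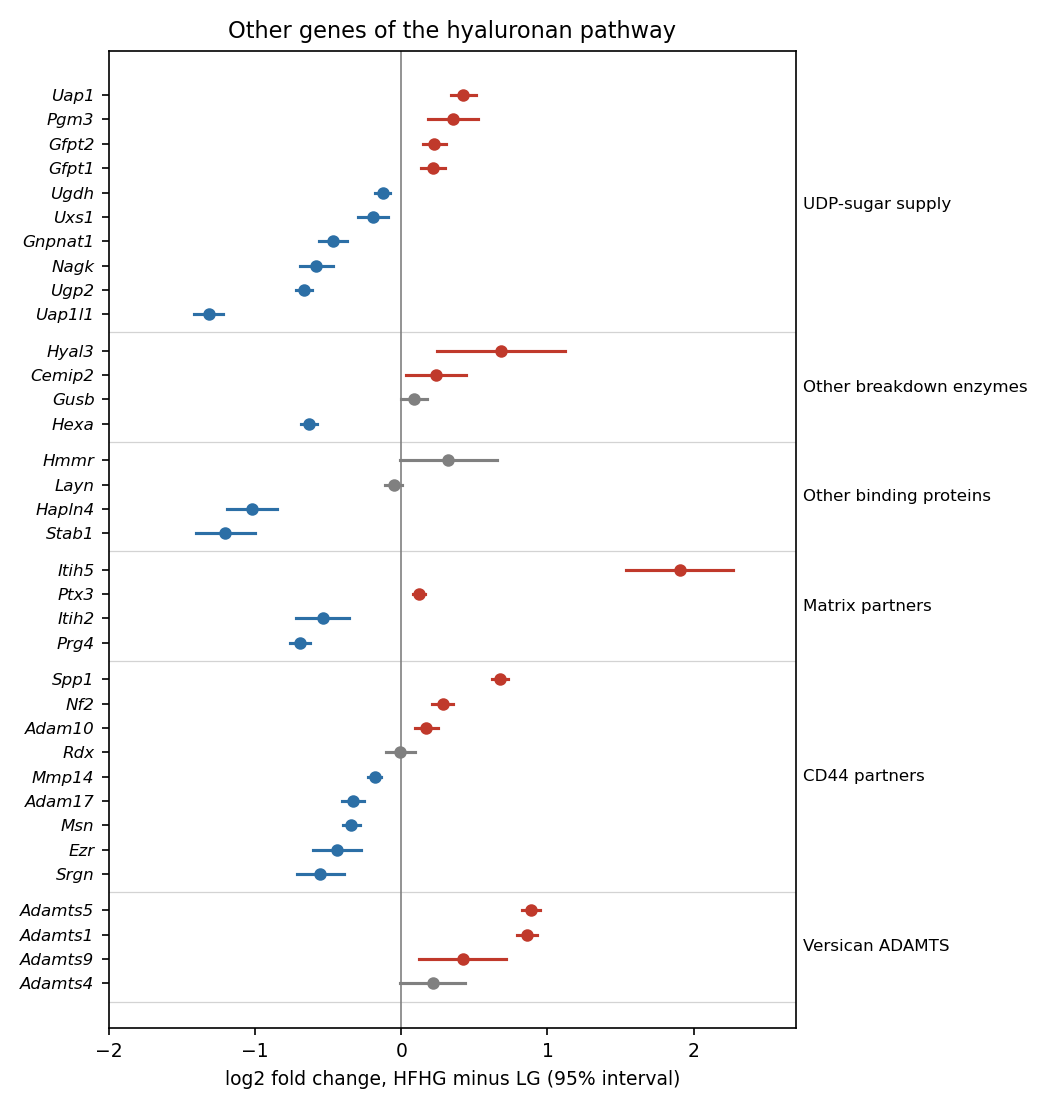
Log2 fold change of HFHG minus LG for the other genes of the hyaluronan pathway that passed the filter and are reported, by role. Points are limma estimates (red called higher, blue called lower, grey not called; n = 4 against 4) and lines 95% intervals. Changes of both signs occur in most groups, from Uap1l1 (-1.32) to Itih5 (1.90, and 0.85 to 2.24 under the alternatives), and the ADAMTS genes called are all higher. Itih5 passed the filter only through its HFHG libraries.

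The plot by role shows that most groups held changes in both directions. Of the other hyaluronidases and the lysosomal exoglycosidases that finish the digestion, 7 of 9 symbols reported were in the table and 4 were tested. Of these, 2 were higher, 1 lower and 1 not called, beside 34% higher and 30.8% lower over all genes tested. The symbols include Tmem2, a former name of Cemip2, which was found under its present name only. Hexa, a lysosomal exoglycosidase, fell from 213 ± 5.80 to 137 ± 2.33 FPKM (log2 fold change -0.63, limma adjusted p = 3.21e-10). Gusb, beta-glucuronidase, which removes the other sugar of the chain, had 0.09 with a limma adjusted p of 0.0905, and was called higher with same-sum scaling (0.00884), by voom (0.0353) and without LG replicate 4 (0.0458). Hyal3 measured 0.898 ± 0.120 FPKM in HFHG and 0.540 ± 0.197 FPKM in LG (0.68, limma adjusted p = 0.00975, and 0.31 to 0.86 over the alternatives). Its groups overlapped, on 239 reads in HFHG and 140 in LG, and the exact permutation p was 0.0571. Hyal3 shares 159 exon bases with Hyal1. Cemip2, a cell-surface relative of Cemip, had 0.24 with a limma adjusted p of 0.0418, and 8 of 17 alternatives took it out of the calls.

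Of 13 other hyaluronan-binding proteins, 4 passed the filter, with 0 called higher, 2 called lower and 2 not called. Among all genes tested, 34% were called higher and 30.8% lower. By limma at an unadjusted p under 0.05, and by voom on the recovered reads, the count of higher genes was also 0, but it was 1 with no filter and 1 without LG replicate 1, where Hmmr was called (log2 fold change 0.42, limma adjusted p = 0.0383). Bcan, which codes for the proteoglycan brevican, was below the filter at 0.0825 ± 0.0239 FPKM in HFHG and 0.0231 ± 0.00796 FPKM in LG (SD, n = 4 each, with 92 and 25 reads). Its groups did not overlap, as for 59.2% of all genes tested, and the exact permutation p was 0.0286. The receptor Layn, at 50.8 FPKM in HFHG and 52.7 FPKM in LG, was the most abundant and did not pass the test (log2 fold change -0.05, limma adjusted p = 0.112). It was called lower with median-ratio scaling (-0.07, 0.0455), and its sign turned with same-sum scaling (0.0058). Hapln4, a link protein, measured 2.53 ± 0.256 FPKM in HFHG and 5.22 ± 0.237 FPKM in LG (-1.02, limma adjusted p = 1.49e-07). Stab1, a scavenger receptor of macrophages and sinusoidal endothelium, measured 0.884 ± 0.0784 and 2.16 ± 0.0952 FPKM (-1.20, limma adjusted p = 1.66e-07; -1.35 to -0.75 over the alternatives). The macrophage markers that were lower in HFHG move with Stab1 and Hexa, and their part in these results was not tested.

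Among the heavy chains and matrix partners, 4 of 8 genes were tested, 2 higher and 2 lower, where 34% of all genes tested were called higher and 30.8% lower. Itih5, a member of the heavy chain family, rose from 0.290 ± 0.0968 FPKM to 1.33 ± 0.0837 FPKM (327 and 1530 reads). Its log2 fold change of 1.90 (limma adjusted p = 5.49e-07) ranged from 0.85 to 2.24 over the 17 alternatives and stayed called higher. All LG libraries of Itih5 (0.209 to 0.420 FPKM) lay below the filter of 0.5 FPKM. It thus entered the test only through its HFHG level. Ptx3, a pentraxin that helps to cross-link the heavy chains on hyaluronan, was abundant at 1452 FPKM in HFHG and 1333 FPKM in LG (0.12, limma adjusted p = 0.000101). Prg4, the lubricin that coats gliding surfaces with hyaluronan, fell from 146 ± 2.68 to 90.4 ± 3.80 FPKM (-0.69, limma adjusted p = 9.86e-10), and Itih2 had -0.54.

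For the ligands, membrane linkers and sheddases of CD44, 9 of 11 genes were tested, with 3 higher, 5 lower and 1 not called (median -0.18). The shares over all genes tested were 34% higher and 30.8% lower. Spp1, the ligand osteopontin, measured 11382 ± 278 FPKM in HFHG and 7123 ± 188 FPKM in LG (log2 fold change 0.68, limma adjusted p = 1.43e-10), but this call was lost with quantile normalization (0.04, adjusted p = 0.248). Of the linkers to actin, Ezr (-0.44) and Msn (-0.34) were lower and Rdx was not called, and the call of Msn was lost with quantile normalization (limma adjusted p = 0.0640). Nf2, which codes for the growth suppressor merlin, was higher (0.28). The sheddases went both ways, with Adam10 higher (0.17) and Adam17 (-0.33) and Mmp14 (-0.18) lower. Srgn, a CD44 ligand typical of blood cells, was lower at -0.55, and the part of the macrophage markers in it was not tested.

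Proteases of the ADAMTS family cut versican, and 4 of the 6 listed were tested. Of these 4, 3 were called higher in HFHG, against 34% of all genes tested, while Vcan was lower. The 2 below the filter had lower means in HFHG, with groups that overlapped. Adamts5 measured 194 ± 4.72 FPKM in HFHG and 105 ± 3.01 FPKM in LG (log2 fold change 0.89, limma adjusted p = 2.93e-11), and Adamts1 65.5 ± 1.59 and 36.1 ± 1.18 FPKM (0.86, limma adjusted p = 1.48e-10). Adamts9 was low (1.13 and 0.833 FPKM), and its call (0.42, limma adjusted p = 0.0167) was lost with quantile normalization (0.0936) and without LG replicate 1 (0.0505). Adamts4 did not pass (0.21, limma adjusted p = 0.0825), but was called higher with same-sum scaling (0.0383), without LG replicate 1 (0.0428) and by voom (0.0218).

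The genes whose pattern over the 8 libraries was most like that of Cemip, by Pearson's r of log2(FPKM + 0.1), were Col12a1, Col4a1 and Tnc, with r of 0.999 each. These values are dominated by the difference between the media, and 300 genes had an r over 0.99 with Cemip. Col12a1, a fibril-associated collagen, measured 142 FPKM in HFHG and 34.1 FPKM in LG, Col4a1, a basement membrane collagen, 99.0 and 63.3 FPKM, and Tnc, the matrix glycoprotein tenascin-C, 327 and 157 FPKM.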

How the data were processed

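TSCs were cultured for 4 days in LG medium (5.5 mM glucose and DMSO) or HFHG medium (palmitic acid at 300 µM with glucose at 25.5 mM), with 4 libraries in each group, grouped by the sample labels. The authors prepared stranded mRNA libraries and deposited FPKM for 19301 genes, unpooled, and all columns were used. Their processing notes name HISAT2 2.1.0 and mm10, whereas the counting program, annotation, filters and the handling of strand and overlapping genes are not given in the sources used here. These choices can move reads between overlapping genes such as Hyal1 and Naa80, and FPKM of a gene also depends on abundant genes in the same library.

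Whole reads were recovered from the FPKM for 19301 of 19301 genes (tolerance 0.0001 reads). They gave the depths of 34308108 to 37362725 reads per library and the exact (Clopper-Pearson) 95% intervals, which cover counting error only. limma 3.58.1 in R 4.3.3 (lmFit, eBayes with trend) was run on log2(FPKM + 0.1) from the deposited FPKM, over the 11710 genes with at least 0.5 FPKM in at least 4 of 8 libraries, with Benjamini-Hochberg adjustment over all of them. Fold changes on this scale understate the change of low genes. Genes below the filter were compared by the exact two-sided permutation test of mean FPKM over 70 arrangements (smallest p 0.0286). The recovery of reads and the limma fit were tested on simulated data, whereas the permutation test was not. The counts simulated for the fit had the same relative spread between libraries for every gene, unlike the real ones. Same-numbered libraries did not deviate together (r of -0.0736 to -0.00558), so the samples were not treated as pairs. Whether same-numbered cultures shared an animal is not given by the labels, and these correlations cannot tell. The alternatives were pseudocounts of 1 and 0.01, no filter, a minimum of 1 FPKM, same-sum scaling, median-ratio scaling, quantile normalization, voom on recovered reads, a replicate block and each library left out in turn. The genes, gene lists and motifs were chosen with earlier results of these data known. All 10 hyaluronan genes are named, and of the other lists the called genes, at least the 2 with the largest change in each, and the 3 genes most correlated with Cemip. Gusb, Layn, Hmmr, Bcan, Adamts4, Rdx and Naa80 are named in addition, chosen after their values were seen. Promoters come from RefSeq (GRCm38.p6). A gene of the list of other breakdown enzymes is not reported here.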

Additional observations from a re-analysis of the deposited data

Results flagged for a closer look

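In 5 of the 20 groups of 4 libraries examined for the 10 genes, the highest or lowest library stood apart from the other 3 by Dixon's criterion at its 95% critical value, which chance alone gives in about 1 group of 20. Has1 was high in HFHG replicate 2 (0.648 FPKM) and in LG replicate 3 (0.445 FPKM). Has2 was high in HFHG replicate 4 (1.07 FPKM), 42.4% above the mean of the other HFHG libraries. LG replicate 4 was low for Cemip (116 FPKM) and for Vcan (14.2 FPKM), and it also stood apart on the 2nd principal component of all genes. These libraries were kept in the comparison.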

How the results depend on the processing

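The calls of Cemip, Vcan and Cd44 and their directions were the same in all 17 alternatives. All genes called numbered 7592 and ranged from 7177 to 7839, and 4 to 5 of the hyaluronan genes were called. The call of Has2 was lost with no filter (log2 fold change 0.45, limma adjusted p = 0.0570) and with quantile normalization (0.28, 0.154), and Tnfaip6 turned to -0.0043 (0.986) with quantile normalization; the causes were not tested. Leaving out each library in turn gave log2 fold changes of 0.34 to 0.57 for Has2 (0.21 with a pseudocount of 1, still called), 0.050 to 0.14 for Hyal1, 0.12 to 0.18 for Hyal2 and -0.00087 to 0.30 for Tnfaip6, and differences of -0.045 to 0.15 FPKM for Has1, -0.0017 to 0.016 FPKM for Has3 and -0.080 to -0.0098 FPKM for Lyve1. The Hyal1 call appeared without LG replicate 2, and that of Hyal2 was lost without HFHG replicate 2. With the replicate number as a block, no call of the 7 tested genes changed (Has2 0.45, limma adjusted p = 0.0313) and 7342 genes were called. No replicate correlated best with its own number. Of the calls, 52.5% were higher in HFHG, 60.9% with same-sum scaling and 47.3% with quantile normalization. Has1, Has3 and Lyve1 have no value under the pseudocounts, quantile normalization, the minimum of 1 FPKM and voom, and Has2 none under that minimum. With 4 libraries a group and under 100 reads of each of Has1, Has3 and Lyve1 in either group, small differences of these genes were not detectable at this depth.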

Other observations

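Hyal2, Hyal1 and Hyal3 lie in a row on the plus strand of chromosome 9, with Tusc2 before them. Tusc2 (chr9:107563255-107566112, GENCODE M21 on GRCm38), whose end is 1832 bases from Hyal2, was of all genes tested the one whose pattern over the 8 libraries was most like that of Hyal2 (Pearson's r = 0.989), a pair noticed after the values were seen. Tusc2 measured 15.0, 15.7, 15.0 and 14.0 FPKM in HFHG and 14.2, 13.0, 13.5 and 13.8 FPKM in LG, with a log2 fold change of 0.13 and a limma adjusted p of 0.0234. Within HFHG, replicate 2 was the highest and replicate 4 the lowest for both genes, and within LG, replicate 1 was the highest and replicate 2 the lowest. Hyal1, further along, had an r of 0.413 with Hyal2 and Hyal3 one of 0.492. Whether reads of neighbouring transcripts enter these values was not tested.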
